A study of Mus musculus with 12 samples.

Results

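Cytosolic ribosomal protein genes were taken from an FPKM table of 24107 mouse genes by their symbols, Rpl or Rps followed by a digit, Rplp0 to Rplp2, and Rpsa. Pseudogene symbols ending in "-ps" with a number and the Rps6k kinase genes were left out, and 84 of 88 such symbols had the required mean of at least 1 FPKM over 12 libraries. FPKM counts the fragments of a gene scaled by its length and by the depth of the library, so it puts genes of different length on 1 scale, within the limits from gene length and shared sequence described below. The 84 genes comprised 31 of the small (40S) subunit, 43 of the large (60S) subunit, 3 of the ribosomal stalk, 6 paralogs or retrocopies of ribosomal protein genes, and Rps19bp1, which encodes a binding partner of the Rps19 protein and no ribosomal protein. Just inside the limit were Rpl28 (4.38 FPKM), Rps4l (4.50) and Rpl24 (6.20), and just outside it were Rpl32l (0.876), Rpl3l (0.842), Rpl39l (0.120) and Rpl10l (0.0169).

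The libraries came from C57BL/6 mice, 3 in each of 4 groups. Control megakaryocyte-erythroid progenitors (MEP), the marrow progenitors of platelets and red cells, and control whole marrow were wild type. The leukemic MEP and the GFP+ marrow cells, both with the genotype Prdm16s, were isolated from leukemic recipient mice. Prdm16s, leukemia and being a recipient therefore cannot be told apart, GFP+ marrow was selected where control marrow was not, and no label ties each library to a mouse of its own. P-values therefore measure spread among these libraries only, which may be technical. By its title the study concerns how MEP become cells that initiate acute myeloid leukemia.

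Each ribosome has a small subunit that reads the mRNA and a large subunit that joins the amino acids. Each subunit needs most of its proteins in equal number. The mRNAs of these genes usually begin with a run of pyrimidines through which the mTORC1 pathway controls their translation, and mammalian genomes hold many processed pseudogenes copied from them. Red cell precursors are known to be sensitive to the loss of single ribosomal proteins, as in Diamond-Blackfan anaemia, and the free large-subunit proteins Rpl5 and Rpl11 can bind Mdm2, the inhibitor of p53.

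Coding sequences are shown for 2 pairs of a gene and its copy, 1 unlike and 1 nearly identical, because the levels of these pairs are compared below. Rps27 (chr3:90212522-90213651, minus strand) and its paralog Rps27l (chr9:66946086-66949516, plus strand) have coding sequences of 255 bases that differ at 61 of them, with no identical run longer than 11 bases. Rpl37 (chr15:5116645-5119140, plus strand) and its retrocopy Rpl37rt (chr5:115102923-115110268, minus strand) have coding sequences of 294 bases that differ at 1, but over their whole transcripts only 31.3% of the 50-base words of Rpl37 and 42.5% of those of Rpl37rt occur in a transcript of any other gene. Coordinates are those of the genes in GENCODE M21 (GRCm38), which also gave the spliced coding sequences, printed 5′ to 3′ with the bases that differ within the pair in capitals.
Rps27: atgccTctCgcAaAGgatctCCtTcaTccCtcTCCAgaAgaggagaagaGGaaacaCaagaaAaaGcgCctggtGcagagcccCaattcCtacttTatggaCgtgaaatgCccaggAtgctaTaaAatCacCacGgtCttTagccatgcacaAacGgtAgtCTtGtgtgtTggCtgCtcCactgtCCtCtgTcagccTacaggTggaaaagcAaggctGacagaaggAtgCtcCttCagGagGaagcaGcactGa
Rps27l: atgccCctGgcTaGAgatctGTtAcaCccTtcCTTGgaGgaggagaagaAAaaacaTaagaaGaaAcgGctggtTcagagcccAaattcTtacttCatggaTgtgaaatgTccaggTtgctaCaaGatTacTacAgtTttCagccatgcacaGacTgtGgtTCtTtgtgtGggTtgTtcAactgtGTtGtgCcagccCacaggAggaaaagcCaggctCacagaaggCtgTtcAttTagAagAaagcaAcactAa
Rpl37: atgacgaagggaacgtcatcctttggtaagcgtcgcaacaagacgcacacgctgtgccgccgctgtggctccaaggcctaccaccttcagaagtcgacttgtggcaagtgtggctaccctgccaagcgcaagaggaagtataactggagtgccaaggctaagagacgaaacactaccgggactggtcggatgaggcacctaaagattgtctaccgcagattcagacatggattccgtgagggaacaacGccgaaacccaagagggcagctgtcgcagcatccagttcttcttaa
Rpl37rt: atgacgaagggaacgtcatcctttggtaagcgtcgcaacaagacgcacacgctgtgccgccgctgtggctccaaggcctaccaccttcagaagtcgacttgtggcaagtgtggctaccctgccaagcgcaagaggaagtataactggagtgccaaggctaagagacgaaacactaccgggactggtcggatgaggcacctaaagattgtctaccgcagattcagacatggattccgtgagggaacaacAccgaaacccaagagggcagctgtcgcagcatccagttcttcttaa
RefSeq lists Rpl37rt as protein coding, and GENCODE lists it as a transcribed processed pseudogene.

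Promoters, from 250 bases before to 50 bases after the start in RefSeq (GRCm38.p6), were matched for 63 of the 84 genes, which had 74 promoters. Windows of 80 bases before to 10 bases after the start are shown for genes discussed below: Rps6, the target of the S6 kinases, Rps19, the gene most often mutated in Diamond-Blackfan anaemia, Rps27 with its paralog Rps27l, and Rpl28, the member with the lowest mean. Capitals mark CGGAAG, the core bound by ETS factors, the letters TCGCGAGA, both on either strand, and a run of pyrimidines opening with C at the start. Because TCGCGAGA can overlap its own reverse complement, a marked stretch can be longer than the motif.
Rps6, chr4:86857358-86857447, minus strand: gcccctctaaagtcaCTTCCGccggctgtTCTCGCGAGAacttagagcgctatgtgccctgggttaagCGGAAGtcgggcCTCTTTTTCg
Rps19, chr7:24884512-24884601, plus strand: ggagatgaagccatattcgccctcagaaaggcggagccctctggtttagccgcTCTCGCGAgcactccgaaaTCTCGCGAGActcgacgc
Rps27, chr3:90213639-90213728, minus strand: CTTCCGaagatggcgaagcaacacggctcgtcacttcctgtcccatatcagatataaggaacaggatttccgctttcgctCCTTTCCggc
Rps27l, chr9:66946006-66946095, plus strand: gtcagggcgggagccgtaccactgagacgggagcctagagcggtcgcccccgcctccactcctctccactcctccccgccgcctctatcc
Rpl28, chr7:4792885-4792974, plus strand: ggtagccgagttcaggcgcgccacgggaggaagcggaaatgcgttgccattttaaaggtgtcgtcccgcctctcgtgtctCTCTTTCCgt
CGGAAG lay in 62.2% of the 74 promoters and in 16.9% of all 32851 promoters of the table, and CCGGAAGT, which contains it, in 16.2% and 3.89%. TCGCGAGA lay in 16.2% against 0.995%, AAGATGGC, the YY1 motif, in 10.8% against 2.75%, and TATAAA in 9.46% against 13.6%. A pyrimidine start, taken as a C at the start with pyrimidines at the next 4 bases, was found in 17.6% against 2.51%. These are counts of letters within 300 bases and not of bound sites, and RefSeq starts need not be the starts used in these cells.

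Whole reads recovered from the FPKM values came to 6.72 to 9.71 M in 10 libraries, 0.572 M in leukemic MEP 3 and 1.15 M in GFP+ marrow 2. The ribosomal protein genes had a median of 247.5 to 752 reads a gene in the other 10 libraries, 30.5 in leukemic MEP 3 and 51 in GFP+ marrow 2, and 23 and 18 of the 84 had fewer than 10 reads there. Leukemic MEP 3 also stood apart in its markers. The summed FPKM of 10 granulocyte and monocyte genes, all in the table, was 25.9 to 359 in control MEP. It was 878 in leukemic MEP 1, 2230 in leukemic MEP 2 and 86688 in leukemic MEP 3, against 61842 to 79978 in control marrow and 86699 to 118335 in GFP+ marrow. The 8 erythroid markers summed to 1198 to 1585 FPKM in control MEP and to 1410, 1869 and 159 in leukemic MEP 1, 2 and 3. Within this list the factor gene Gata1 was at 289 to 335 in control MEP and at 242, 210 and 37.7 in leukemic MEP, while the globin gene Hbb-bs was at 8.39 to 66.2 and at 815, 1362 and 47.1. The 6 megakaryocyte genes summed to 8.50 to 123 in control MEP and to 5673, 4651 and 294. Their part in the differences below was not tested, and the counts of members called in each comparison are given with and without leukemic MEP 3. Fewer cells of a type and less RNA per cell cannot be told apart in such bulk libraries.

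The levels of the ribosomal protein genes differed widely, although most proteins of the ribosome are needed in equal number. Rpl4 (1469 FPKM) and Rps14 (1041) were among the highest means over 12 libraries, and the median gene had 60.6. The 6 highest genes held 44.2% of the summed FPKM and the 10 highest 59.1%, while 9 genes were under 10 FPKM and 23 under 20. A longer length behind the FPKM gives a lower value for the same reads. In some genes this length exceeded that of the transcript used below (Rps12, 1803 against 584 bases, and Rpl18, 2602 against 679). In others it was shorter (Rpl12, 638 against 1242 bases), and the part of this length in the levels was not tested. Rpl4 was at 1183, 1291 and 1209.6 FPKM in control marrow and at 1574, 1419 and 1374 in GFP+ marrow. The order of the 84 genes was nearly the same in each group, with Spearman coefficients of 0.975 to 0.991 between group means (a description across genes, which share libraries and lengths).

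**Figure D1:**
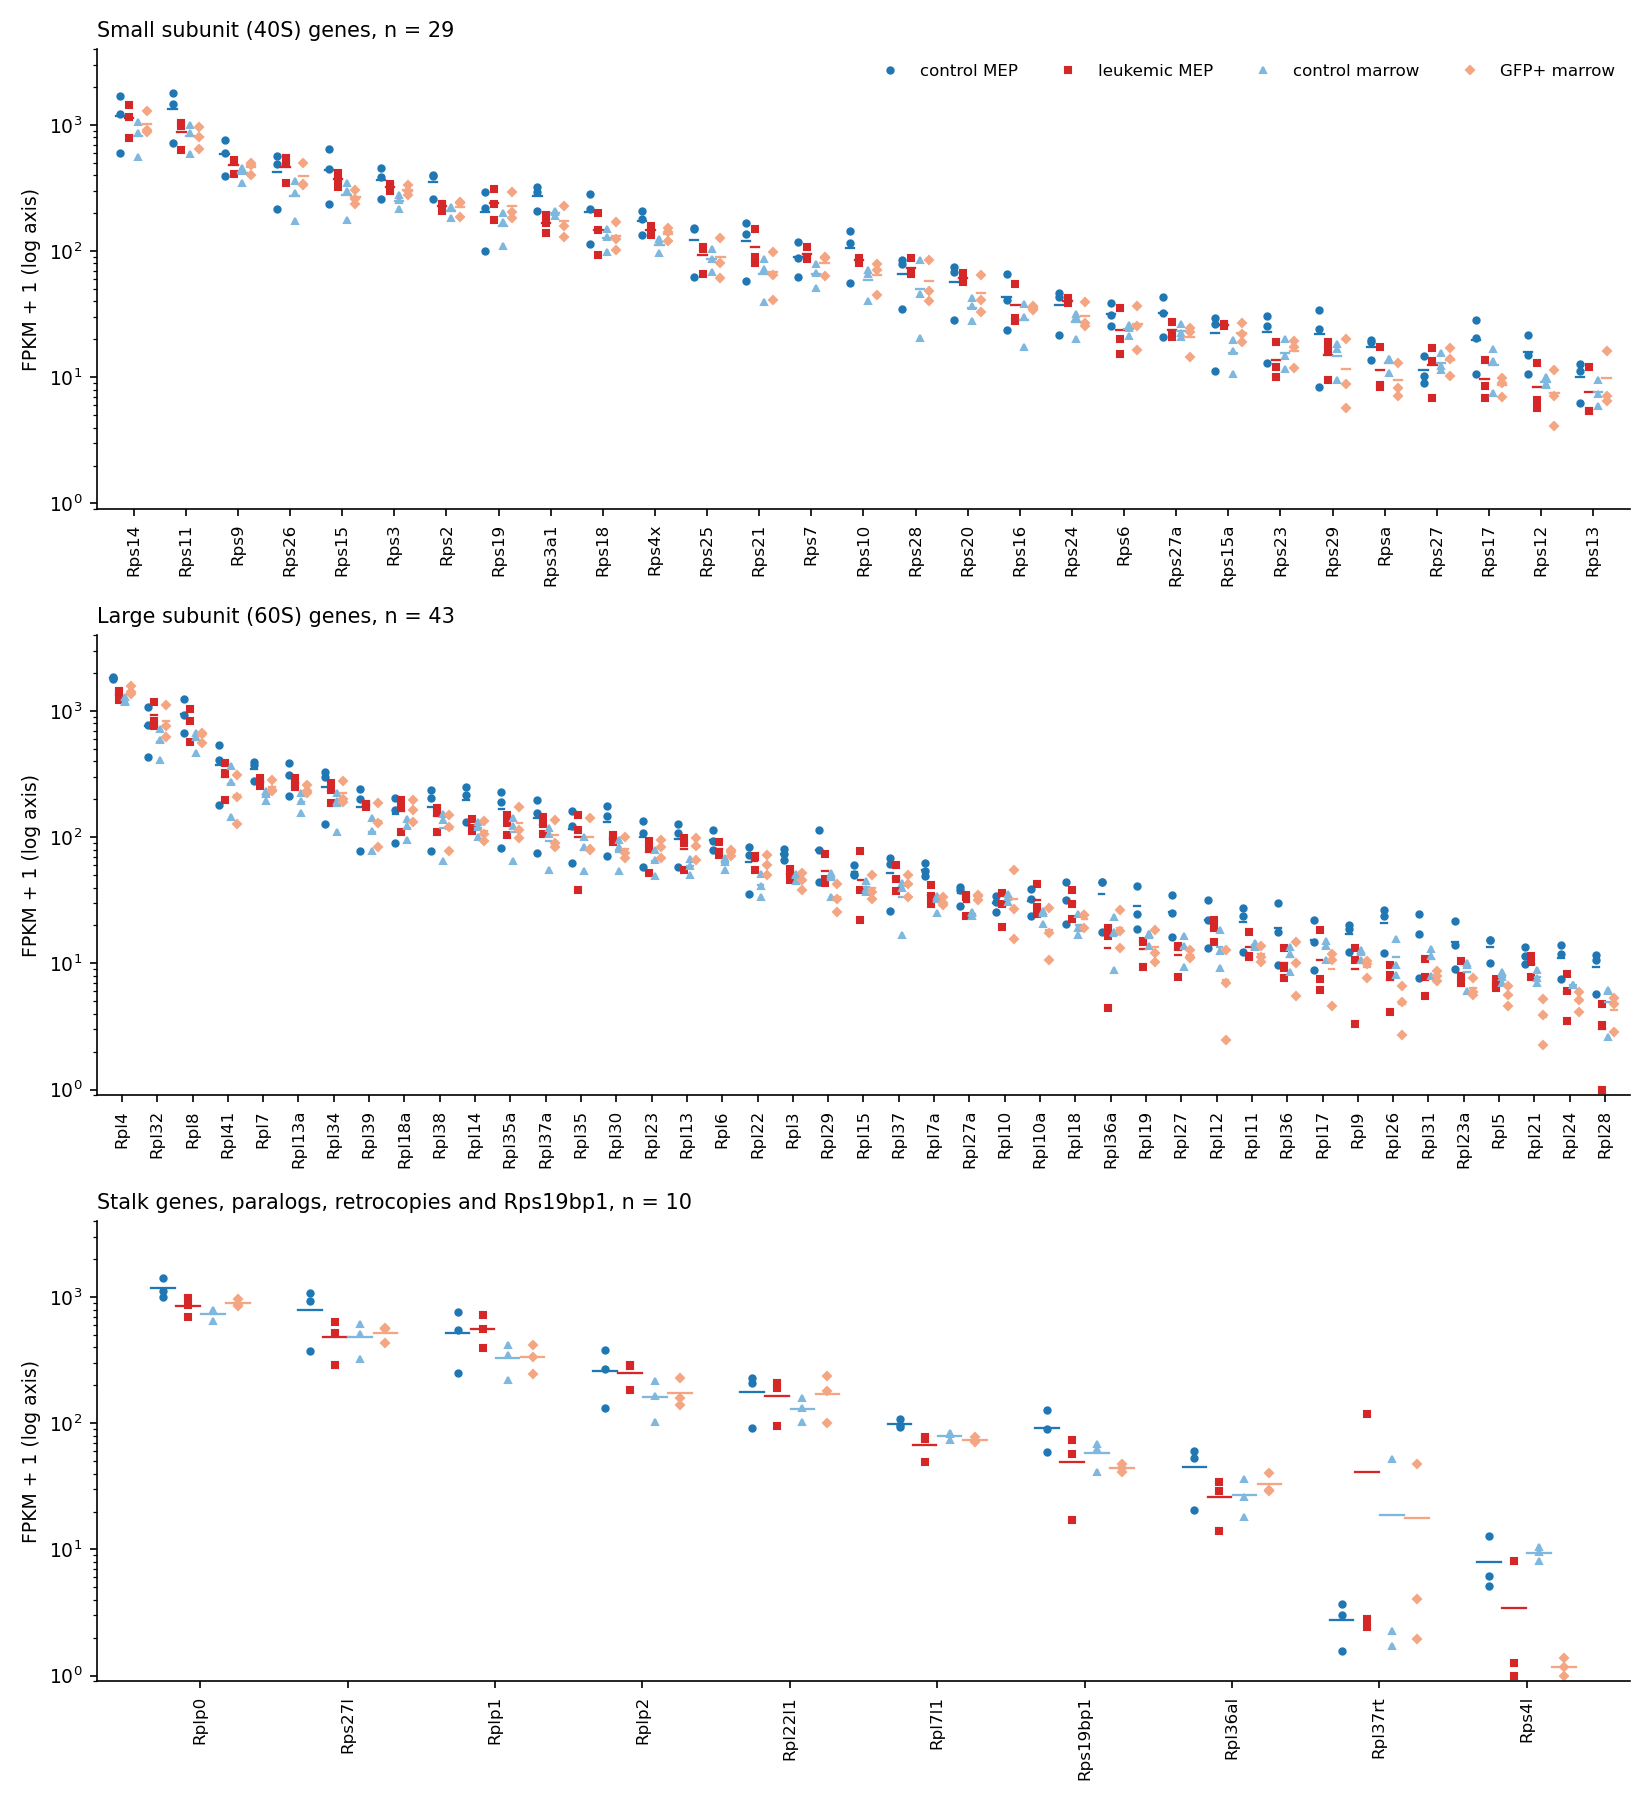
FPKM + 1 (log axis) of 82 of the 84 genes in each of 12 libraries, ordered by mean within the 40S genes, the 60S genes and the rest. Symbols are libraries, colours are the 4 groups and short lines are group means. Levels run from Rpl4 (mean 1469 FPKM) to Rpl28 (4.38), and Rpl37rt and Rps4l are spread most within groups.

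Genes whose transcripts shared more sequence with other genes had lower levels. For each gene the 50-base words of 1 transcript (one matched to RefSeq, then a coding one, then the longest, in this order of preference) were looked up in the transcripts of all other genes of GENCODE M21, and a median of 53.2% of them occurred elsewhere, in a median of 10 other genes, 8 of them pseudogenes. Rpl4 shared 16.5% of its words and Rps27 98.6%. The 28 genes that shared least (0 to 38.1%) had a median of 119 FPKM, the next 28 had 79.8, and the 28 that shared most (71.3 to 98.6%) had 24.6. Across the 84 genes, which all come from the same libraries, log2 mean FPKM and the share of words had a Pearson r of -0.41 and a Spearman rho of -0.41, and -0.52 and -0.51 with 100-base words. Exceptions ran both ways. Rps4l (4.50 FPKM) shared 14.9% and Rpl28 (4.38) 47.4%, while Rps2 (253) shared 79.0% and Rps18 (152) 86.7%. How reads that match several genes were counted is not given in the sources used here, so the part that this sharing has in the levels was not tested.

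**Figure D2:**
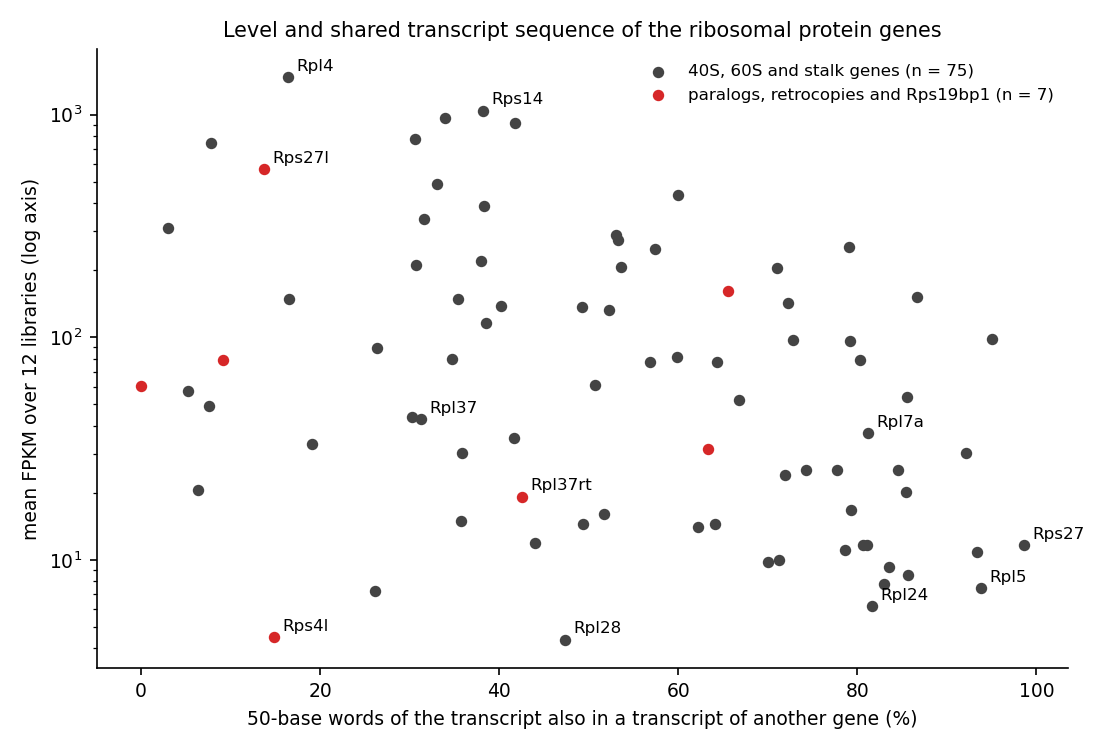
Mean FPKM over 12 libraries (log axis) against the percentage of a transcript's 50-base words that also occur in a transcript of another gene, with 1 point per gene for 82 of the 84 genes. High levels are at the left (Rpl4, 16.5% shared, 1469 FPKM) and the most shared transcripts are at the lower right (Rps27, 98.6% shared, 11.7 FPKM).

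The members as a sum took on average a larger share of the FPKM in control MEP than in marrow. The 84 genes held 3.11, 4.81 and 4.37% of all FPKM in control MEP 1, 2 and 3, 4.01, 3.52 and 2.88% in leukemic MEP, 2.01, 2.75 and 2.44% in control marrow, and 2.67, 2.21 and 2.04% in GFP+ marrow. The control MEP and control marrow libraries did not overlap, leukemic MEP 1 and 2 lay within the control MEP range, and leukemic MEP 3 lay between the control groups. With the 10 genes of highest mean left out of the total, control MEP 1 (3.16%) lay below control marrow 2 (3.38%), and as a share of recovered reads it did so again (1.36 and 1.42%), so the control groups overlapped on both of these scales. Group means were 4.10 ± 0.884% (SD, n = 3), 3.47 ± 0.565%, 2.40 ± 0.369% and 2.31 ± 0.329% in control MEP, leukemic MEP, control marrow and GFP+ marrow. Without the 10 highest genes they were 4.19, 3.90, 2.95 and 3.02%. As a sum over chosen members the share was given no test.

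In both control groups, nearly the whole family was lower in library 1 than in libraries 2 and 3. Control MEP 2 was above control MEP 1 in 84 of 84 genes, by a median of 1.16 log2 units, and control MEP 3 was above control MEP 1 in 81. Rps14, lost in the human 5q- syndrome, shows the size of this at 604, 1717 and 1217 FPKM in control MEP 1, 2 and 3, whereas Rpl4, a protein of the exit tunnel, was at 1845, 1874 and 1807. In control marrow, library 2 was above library 1 in 80 genes, by a median of 0.59, and library 3 in 78, by 0.39. The median of all 11462 tested genes moved by less than 0.03 in each of these 4 pairs.

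These differences within groups were larger for short genes. Ribosomal protein genes are short, with a median of 776 bases behind their FPKM against 3065 for all tested genes. The difference between control MEP 2 and 1 had a Spearman rho of -0.60 with gene length over the 84 genes and -0.53 over all tested genes, and between control marrow 2 and 1 the values were -0.57 and -0.36. All tested genes of up to 600 bases were higher in control MEP 2 than in 1 by a median of 0.90, and those above 2000 bases were lower by 0.12. The 84 genes lay above these medians, at 1.41 for the 27 of up to 600 bases and 0.96 for the 10 above 2000 bases. In leukemic MEP 3 against 1 the trend ran the other way, with a median of -0.98 for all genes of up to 600 bases. Its part in the comparisons between groups was tested only by an adjustment of each library for gene length, chosen after seeing the data, whose counts are given below.

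**Figure D3:**
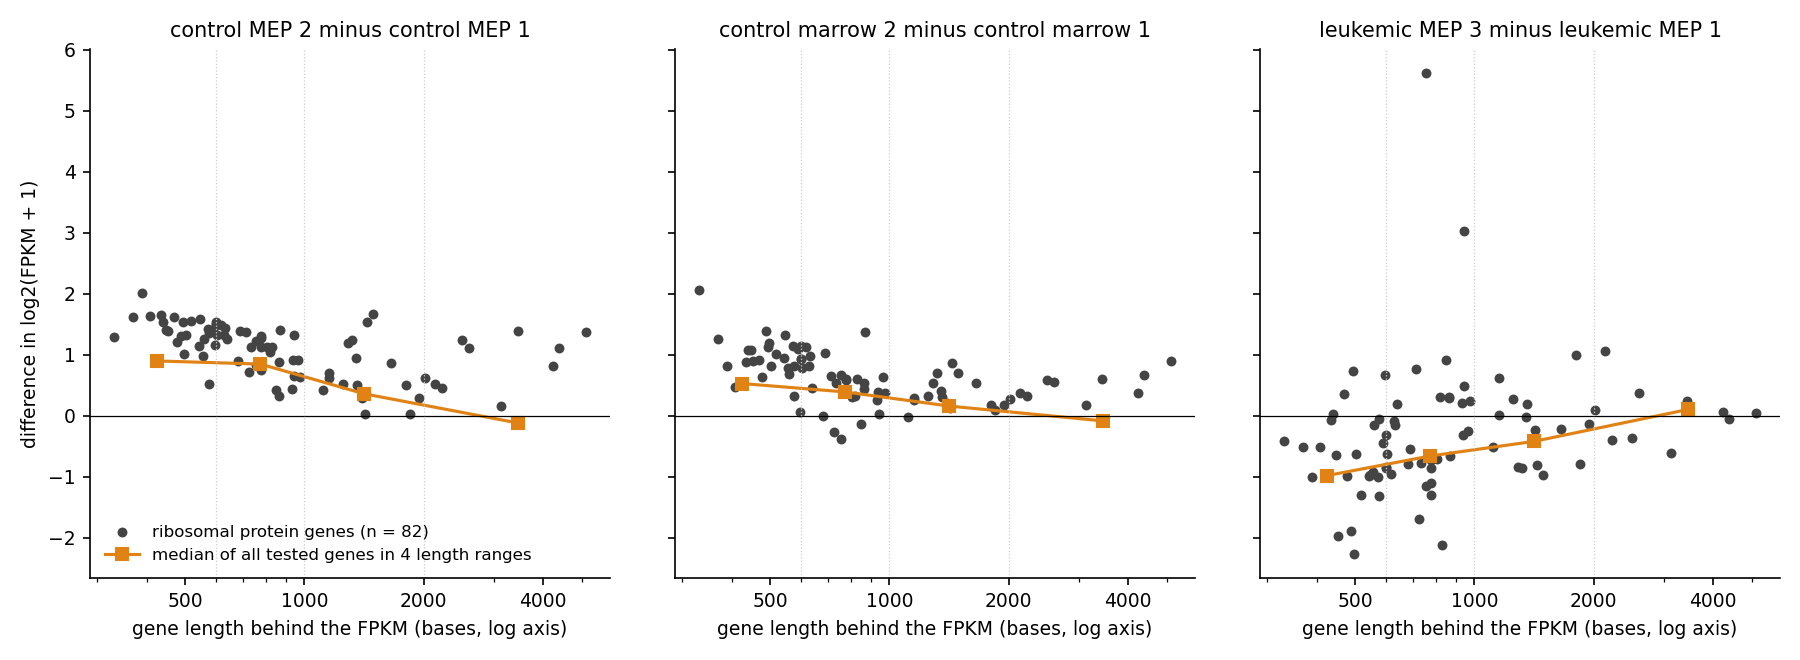
Difference in log2(FPKM + 1) between libraries of the same group (control MEP 2 minus 1, control marrow 2 minus 1, leukemic MEP 3 minus 1) against the gene length behind the FPKM (log axis). Points are 82 of the 84 genes and squares the medians of all tested genes in 4 length ranges split at 600, 1000 and 2000 bases. In control MEP all 82 points lie above 0.

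A smaller share of the ribosomal protein genes than of all genes passed the test between leukemic and control MEP. None rose and 7 fell, which is 8.33% of the 84, while 26.0% of all tested genes changed (13.7% higher and 12.3% lower; limma on log2(FPKM + 1), Benjamini-Hochberg adjusted p below 0.05 over all genes). At an unadjusted p below 0.05, 0 were higher and 21 lower, against 38.1% of all genes in either direction. Limma voom on the recovered reads called 0 higher and 6 lower. That was 7.14% of the members, against 10.7% of all genes lower and 28.5% in either direction. Of the 7 genes only Rpl5 and Rpl7a were among the 6, and Rpl28, Rpl26, Rpl27 and Rpl19 were not called by voom. Over 22 alternatives the members' share called in either direction was below that of all genes in each, but the share that fell was above that of all genes in 3 of them, given below. The median log2 fold change of the 84 was -0.32 against 0.02 for all tested genes, and 68 of 84 were below 0. Among the 7 were the large-subunit genes Rpl28, Rpl26, Rpl27, Rpl19, Rpl5 and Rpl7a.

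Rpl28, a protein of the large subunit, was at 4.76, 10.6 and 9.58 FPKM in control MEP 1, 2 and 3 and at 3.80, 2.22 and 0 in leukemic MEP, where the 0 stands for 0 reads in the shallowest library. Every leukemic library was below every control library, and the fall was 1.84 ± 0.56 (log2 ± SE, adjusted p = 0.0295). Rpl26, which is also known to bind the p53 mRNA, was at 11.1, 25.8 and 22.6 in control MEP and 7.11, 8.79 and 3.08 in leukemic MEP, again with no overlap, and fell by 1.52 ± 0.45 (adjusted p = 0.0268).

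Rpl27 went from 15.1, 34.1 and 24.0 FPKM to 12.5, 12.7 and 6.84, and Rpl19 from 17.9, 40.3 and 23.8 to 14.2, 13.8 and 8.32. In both genes control MEP 1 lay close to the leukemic libraries and control MEP 2 far above them. They fell by 1.09 ± 0.33 and 1.07 ± 0.33 (adjusted p = 0.0301 and 0.0318).

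Rpl5, which carries the 5S RNA into the large subunit, was at 9.04, 14.3 and 14.4 FPKM in control MEP and at 5.38, 6.48 and 5.80 in leukemic MEP, and fell by 0.95 ± 0.26 (adjusted p = 0.0177). Its partner Rpl11 was at 11.4, 26.7 and 22.6 and at 10.3, 10.5 and 16.9, overlapped between the groups and did not pass (-0.60, adjusted p = 0.173). Rpl7a was at 48.7, 61.2 and 53.5 in control MEP and at 33.2, 28.5 and 40.7 in leukemic MEP, and fell by 0.67 ± 0.20 (adjusted p = 0.0310).

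All 7 calls were lost without control MEP 2 and without control MEP 3, and all 7 were lost with only the MEP groups in the fit. Of all genes, 8.17, 8.04 and 6.46% were called lower in these fits, and 18.3, 16.9 and 14.8% in either direction. Without leukemic MEP 3 the test called 6 genes lower (7.14%, against 12.1% of all genes lower and 27.2% in either direction). Only Rpl5 (-0.95, adjusted p = 0.0240) and Rpl7a (-0.80, adjusted p = 0.0109) were among the 7. Rpl28 was then at -1.18 (adjusted p = 0.0727) and Rpl26 at -1.14 (adjusted p = 0.0724). Rpsa, a 40S protein also described as the laminin receptor, was at 12.8, 18.7 and 18 FPKM in control MEP and at 7.41, 7.69 and 16.5 in leukemic MEP, and did not pass with leukemic MEP 3 (-0.67, adjusted p = 0.159) but passed without it (-1.02, adjusted p = 0.0215). Without control MEP 1, 16 fell, or 19.0% against 9.68% of all genes lower and 19.7% called in either direction, and without leukemic MEP 2, 11 fell, or 13.1% against 12.9% lower and 27.6% in either direction. With the adjustment for gene length 16 genes fell and 0 rose, again 19.0%, against 14.5% of all genes lower and 29.2% in either direction, and 6 of the 7 were among the 16. With the median of the family set equal in every library, no member was called lower and Rpl32 was called higher. That setting removes any shift shared by the members, so it cannot show whether the family as a whole fell.

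The groups did not overlap for 13 of the 84 genes, all lower in leukemic MEP (15.5%, against 19.7% of all tested genes), and for 0 that were higher (21.1% of all). Rpl3, which lies next to the site of peptide bond formation, was one of them at 64.9, 79.8 and 73.2 FPKM against 54.9, 44.7 and 50, and did not pass (-0.53, adjusted p = 0.0523). Rpl4 was at 1434, 1402 and 1217 in leukemic MEP, below the narrow range of control MEP given above (-0.45, adjusted p = 0.155). Rps14, also at high level, overlapped at 1445, 1157 and 796 in leukemic MEP.

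In the Diamond-Blackfan list of 20 genes, all tested, 3 fell (Rpl26, Rpl27 and Rpl5) and none rose, a share of 15.0% against 12.3% of all genes that fell. The median was -0.24, and without leukemic MEP 3 neither Rpl26 nor Rpl27 passed. Rps19 was at 100.3, 292 and 218 FPKM in control MEP and at 309.7, 235 and 175 in leukemic MEP, so the groups overlapped (0.33, adjusted p = 0.560). Rps26 was at 215, 573 and 490.2 and at 545, 496 and 348, and Rps6 at 24.4, 30.2 and 37.7 and at 19.1, 34.7 and 14.4, both with overlap. Of the 3 stalk genes, whose proteins recruit the translation factors, Rplp1 overlapped at 248, 761 and 551 against 559.6, 397 and 719, as did Rplp2 at 130.5, 381 and 269 against 285, 182 and 289. Rplp0, which holds them to the ribosome, was at 1000.3, 1410.5 and 1119 against 861, 697 and 984, with no overlap and without passing (-0.47, adjusted p = 0.161).

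In marrow, 2 of the 84 genes fell between control and GFP+ cells and none rose (2.38%, against 9.05% of all tested genes changed and 6.03% lower), and at an unadjusted p below 0.05 it was 3 lower and 0 higher (23.9% of all genes in either direction). Voom also called 2, both lower (18.1% of all genes). The median was 0.07, against -0.05 for all genes. It was below 0 with libraries scaled to equal totals (-0.16, where the median of all genes was -0.25), with quantile normalization (-0.03) and with voom (-0.07). Without control marrow 1 it was -0.13, and without GFP+ marrow 1 it was -0.0055. With the median of the family set equal, which holds it near 0, it was -0.0035. Without leukemic MEP 3, which enters only the estimate of the spread here, 3 fell, the third being Rpl26 (3.57%, against 10.4% of all genes lower). The 4 macrophage markers summed to 729 to 798 FPKM in control marrow and to 12.5 to 25.4 in GFP+ marrow, and the 8 erythroid markers to 1843 to 2757 and to 155 to 275. Their part in the marrow results was not tested. Neither group was uniformly higher, since 6 genes were higher and 6 lower with no overlap (7.14% each, against 17.6 and 19.6% of all genes).

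Rps4l, a retrocopy of Rps4x that RefSeq and GENCODE list as a transcribed pseudogene (chr6:148354656-148355598), was at 7.12, 9.41 and 8.50 FPKM in control marrow and at 0.163, 0 and 0.376 in GFP+ marrow. These are 50, 82 and 63 reads against 1, 0 and 3. It fell by 2.99 ± 0.64 (adjusted p = 0.0121), and over all alternatives run its adjusted p exceeded 0.05 only without control marrow 2 or control marrow 3 (0.0549 and 0.0505). In MEP it was at 4.11, 11.7 and 5.20 in the controls and at 0, 0.260 and 7.12 in leukemic MEP 1, 2 and 3. Leukemic MEP 3 held 4 reads of it and lay within the control range. The change of -1.77 did not pass (adjusted p = 0.0609), and without that library it was -2.72 (adjusted p = 0.000197). Its parent Rps4x, on the X chromosome, was at 95.9 to 124 FPKM in control marrow and 119.8 to 152 in GFP+ marrow.

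Rpl21, a large-subunit gene, was at 6.01, 7.80 and 6.67 FPKM in control marrow and at 2.89, 1.25 and 4.18 in GFP+ marrow, with the lowest value in the shallow library 2. It fell by 1.13 ± 0.32 (adjusted p = 0.0458), and was at -0.80 without that library (adjusted p = 0.146). The call was lost in 10 of the 12 fits that left out 1 library. Between leukemic MEP (9.23, 10.5 and 6.76) and GFP+ marrow it was the only member called, higher by 1.45 ± 0.32 in leukemic MEP (adjusted p = 0.0350), or 1.19% of the 84 against 3.05% of all genes (0.977% higher and 2.08% lower). Without GFP+ marrow 2 that difference was 1.11 (adjusted p = 0.101), without leukemic MEP 3 it was 1.61 (adjusted p = 0.00481), and it too was lost in 10 of 12 such fits. Together with 4 further genes it had no overlap between these groups (5.95%, against 7.62% of all genes), and 0 were lower without overlap (8.30% of all).

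**Figure D4:**
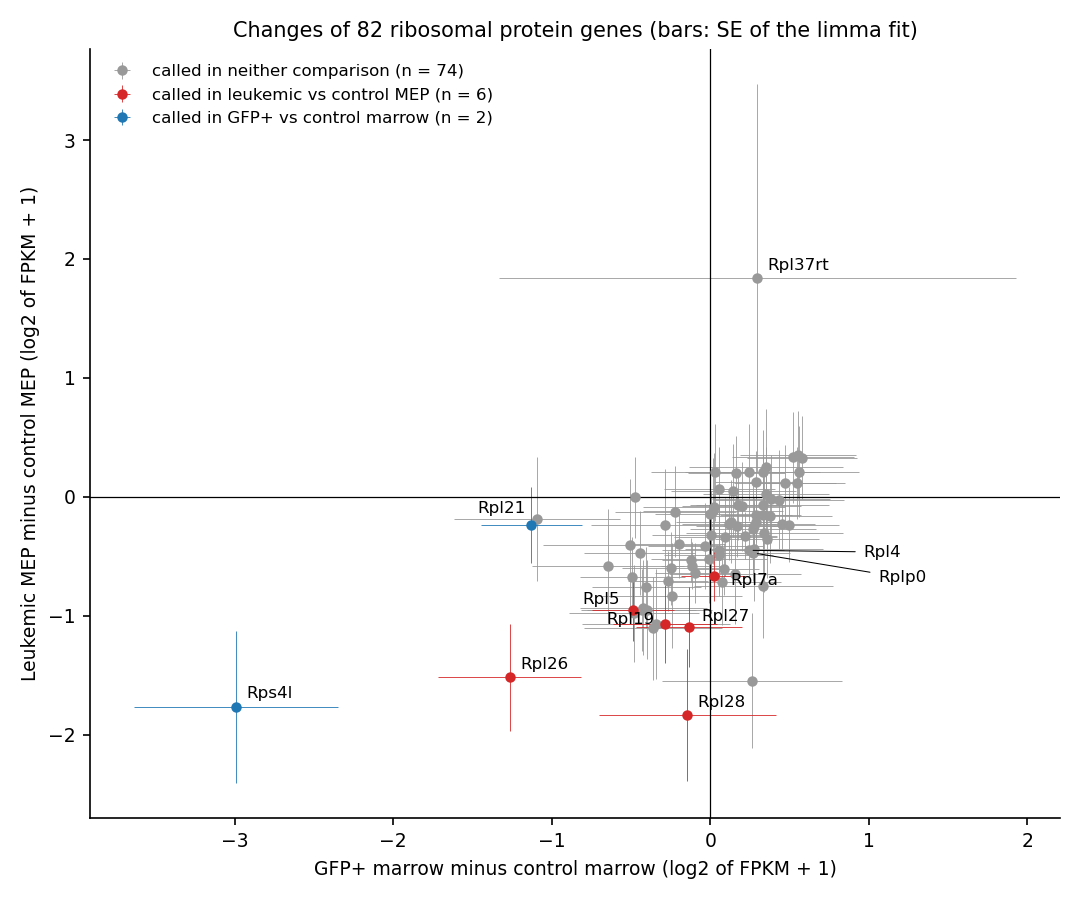
Log2 change of 82 of the 84 genes in GFP+ against control marrow (x axis) and in leukemic against control MEP (y axis), on the scale of log2(FPKM + 1), with SE bars of the limma fit. Of the 82 points, 66 lie below 0 on the y axis and 32 on the x axis, 6 called in MEP are red, the 2 called in marrow are blue, and Rpl37rt has the widest bars.

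Control MEP were higher than control marrow in most members. The median difference was 0.57 log2 units, against 0.03 for all tested genes, and 80 of 84 were above 0. Only 3 genes passed, all higher in MEP (3.57%, against 15.0% of all genes in either direction and 2.63% higher). Rpl7a was at 24.0, 33.0 and 31.9 FPKM in control marrow, below each control MEP value given above, and differed by 0.86 ± 0.20 (adjusted p = 0.0126). Rps2, near the mRNA entry of the small subunit, was at 259.6, 397 and 401 in control MEP against 184, 220.0 and 223 (0.73 ± 0.22, adjusted p = 0.0439), and Rpl7, of the large subunit, at 278, 376 and 392 against 192, 230.5 and 221 (0.69 ± 0.20, adjusted p = 0.0364). The groups did not overlap in 17 genes, all higher in MEP (20.2%, against 20.3% of all), and in 0 that were lower (26.1% of all). The count of calls was 0 without control MEP 2 (0.960% of all genes higher) or control marrow 1 (0.646%). It was 15 without control MEP 1, or 17.9% against 2.01% of all genes higher and 11.5% in either direction. Without leukemic MEP 3, a library that enters only the estimate of the spread, it was 12, or 14.3% against 7.32% higher and 24.4% in either direction.

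The difference between the change in MEP and the change in marrow passed the test for 0 of the 84 genes (4.89% of all genes, 4.52% higher and 0.366% lower), in limma, in voom and without leukemic MEP 3, with 6 lower at an unadjusted p below 0.05 (17.6% of all genes). The median difference was -0.42, against 0.04 for all genes, and 72 of 84 were below 0. It moved with 1 library, to -0.19 without control MEP 2 and -0.70 without control MEP 1.

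Paralogs and parents kept unequal shares. Rps27l, which p53 is known to induce, had a mean of 571 FPKM and held 96.4 to 99.1% of the FPKM of the pair with Rps27 (11.7) in every library. The coding sequences printed above share no identical run over 11 bases, but Rps27 shared 98.6% of its 50-base words with 9 other genes, 8 of them pseudogenes, and Rps27l 13.7%. Rps27l was at 371, 1078 and 934 FPKM in control MEP and 522, 638 and 291 in leukemic MEP, with overlap (-0.65, adjusted p = 0.275).

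Rpl22l1 held 62.7 to 78.2% of the pair with Rpl22, a gene needed for T cell development, and their coding sequences were 67.5% identical. Rpl36al held 53.9 to 58.1% of its pair with Rpl36a in control MEP, 60.7 to 79.1% in leukemic MEP and 60.1 to 69.3% in both marrow groups. The 79.1% was in leukemic MEP 3 and came from 4 reads of Rpl36al and 1 of Rpl36a. Leukemic MEP 1 and 2 were at 68.5 and 60.7%. The control MEP range lay below all other libraries, and the shares were not tested. Rpl36a itself was at 16.9, 43.2 and 43.1 FPKM in control MEP and at 15.4, 18.3 and 3.42 in leukemic MEP (-1.55, adjusted p = 0.0633). Rpl7l1, a protein of ribosome assembly, held 14.2 to 27.6% of its pair with Rpl7 and did not overlap between control MEP (95.7, 107 and 92.7) and leukemic MEP (74.4, 77.2 and 48.5) without passing (-0.58, adjusted p = 0.0510). Rpl3l, Rpl10l and Rpl39l, paralogs known from muscle, testis or other tissues, stayed below the limit on the mean; the highest was Rpl3l at 3.07, 3.48 and 1.26 FPKM in GFP+ marrow.

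**Figure D5:**
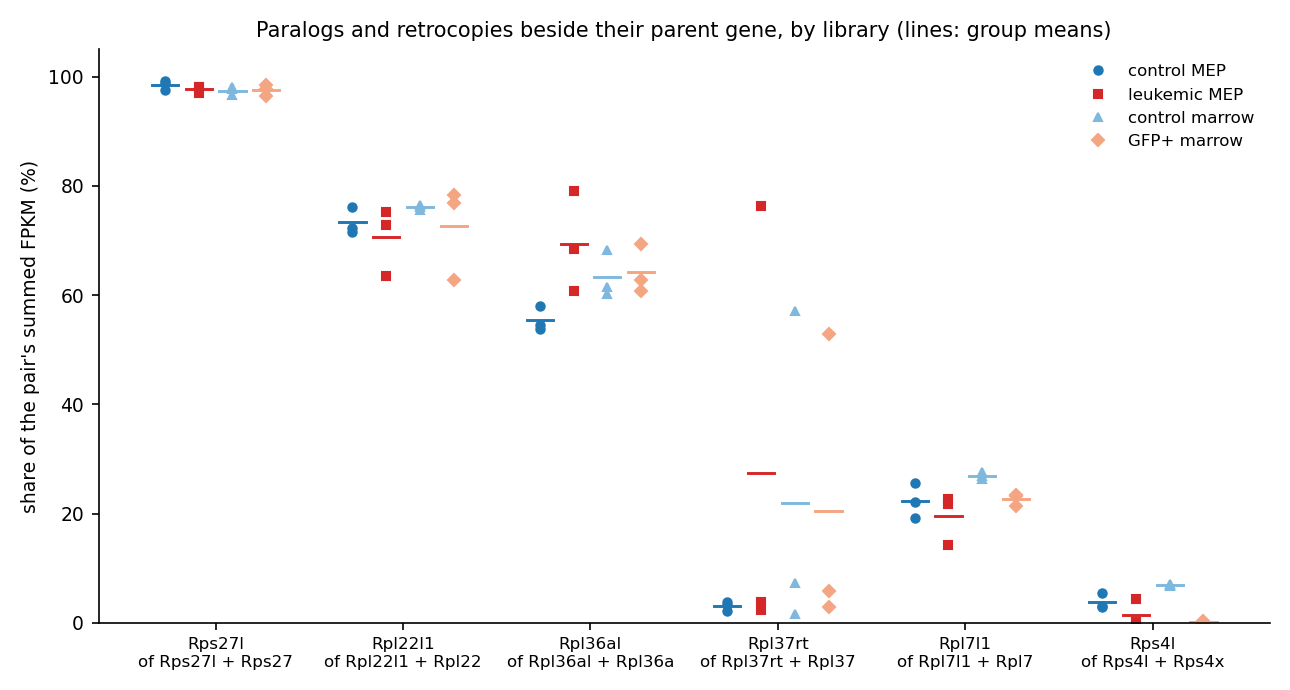
Share of a pair's summed FPKM (%) held by a paralog or retrocopy beside its parent gene, by library, with lines at the group means. Rps27l holds over 96% in all 12 libraries, Rpl36al is lowest in control MEP (53.9 to 58.1%), and Rpl37rt is high in 1 library of each of 3 groups.

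Rpl37rt, added to this account after its values were seen, was high in 3 libraries of different groups. It was at 118 FPKM in leukemic MEP 3, 51.6 in control marrow 3 and 46.7 in GFP+ marrow 2, and at 0.570 to 3.05 in the other 9. Its parent Rpl37 was at 36.7, 38.8 and 41.7 in those 3 libraries and at 15.9 to 67.8 in the others, so the retrocopy held 76.3, 57.1 and 52.9% of the pair there and 1.66 to 7.26% elsewhere. The reads behind the 3 values were 53, 306 and 38. The groups overlapped, and the change in MEP was the least precise of the 84 (1.84 ± 1.63, adjusted p = 0.435).

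Other fixed members were measured without passing in any comparison. Rpl10, among the last proteins to join the large subunit, was at 14.6 to 54.2 FPKM over the 12 libraries, with both extremes in GFP+ marrow. Rpl38, which is known to affect the translation of Hox mRNAs in mouse embryos, ranged from 63.9 (control marrow 1) to 237 (control MEP 2), and Rpl39 from 76.2 to 243 in the same libraries. Rpl22 was at 34.6, 82.8 and 72.0 in control MEP and 70.5, 68.6 and 54.3 in leukemic MEP. Rpl24 was at 6.48, 12.9 and 10.9 in control MEP and at 5.03, 7.21 and 2.47 in leukemic MEP. Rps27rt was not analysed here.

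Among genes that act with the ribosomal proteins, most of the calls in MEP were falls, except in the p53 list. Over all tested genes 13.7% rose and 12.3% fell, and these shares are the background of each count. Of 29 translation initiation factors 11 fell and none rose (37.9% lower), with a median of -0.72, and 11 fell without leukemic MEP 3 (3 to 15 over the alternatives). Eif2b1, a subunit of the exchange factor that recharges eIF2, went from 139, 152 and 132 FPKM to 74.4, 65.5 and 39.9 (-1.26 ± 0.23, adjusted p = 0.00206), and Eif3m, a subunit of eIF3, from 279, 339 and 332 to 143, 169 and 123 (-1.13 ± 0.21, adjusted p = 0.00211). Of 9 dedicated chaperones and assembly partners 6 fell (66.7%) and none rose, with and without leukemic MEP 3 (3 to 7 over the alternatives). Rrs1, which helps to bring in the 5S particle, fell by 1.02 ± 0.18 (adjusted p = 0.00179), and Grwd1, the chaperone of Rpl3, by 1.72 ± 0.35 (adjusted p = 0.00355). None of the 29 or of the 9 passed in marrow, where 6.03% of all genes fell. Over the alternatives 0 to 5 initiation factors fell there, with 5 in voom, and 0 to 1 chaperones.

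Rack1, a ribosomal protein outside the symbol pattern, was at 639.9, 989.9 and 847 FPKM in control MEP and at 497, 451 and 464 in leukemic MEP (-0.79 ± 0.23, adjusted p = 0.0268), while Fau did not pass. Of 14 elongation factors and other genes with pyrimidine starts 3 fell and none rose (21.4% lower, 0 to 4 genes over the alternatives), among them Eef1d (-1.12 ± 0.28, adjusted p = 0.0112) and Eef1g (-0.60 ± 0.19, adjusted p = 0.0335). The calls of Rack1 and Eef1g were lost without control MEP 2, control MEP 3 or leukemic MEP 2 (adjusted p = 0.0564 to 0.0980 and 0.0818 to 0.0988), and that of Eef1d without control MEP 2 (0.0533). Among 16 tested genes of mTORC1, regulators of such mRNAs and S6 kinases, 1 rose and 2 fell in MEP (6.25 and 12.5%), close to the share of all genes that fell. Over the alternatives 0 to 2 rose and 0 to 3 fell, with 2 of each without leukemic MEP 2 and none with the MEP groups alone. Eif4ebp1, the inhibitor of cap-dependent translation, fell by 1.27 ± 0.28 (adjusted p = 0.00613), and Rps6ka3, an S6 kinase of the RSK family, rose by 1.28 ± 0.35 in MEP (adjusted p = 0.0183). In marrow it rose by 1.56 ± 0.35 (adjusted p = 0.0155). The call of Rps6ka3 in MEP was lost without control MEP 2 or 3 (adjusted p = 0.0768 and 0.0517). Its call in marrow was lost without control marrow 2 or 3 or GFP+ marrow 2 (0.0653 to 0.0726). Of 12 p53 pathway genes 4 rose and 1 fell (33.3 and 8.33%), and 3 rose and 0 fell without leukemic MEP 3 (3 to 4 and 0 to 2 over the alternatives). Bbc3, the death gene PUMA, was at 0 to 0.283 FPKM in control MEP and 2.11 to 4.36 in leukemic MEP and rose by 1.91 ± 0.29 (adjusted p = 0.000625), and Cdkn1a, the cell cycle inhibitor p21, rose by 2.31 ± 0.38 (adjusted p = 0.000914). In marrow Bbc3 rose by 1.14 ± 0.29 (adjusted p = 0.0317), the only one of the 12, and the call was lost in 7 of 12 fits that left out 1 library.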

How the data were processed

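RNA from sorted cells was made into Smart-seq2 and Nextera XT libraries and sequenced on a HiSeq2500, per the labels' protocols. The authors deposited 1 table of FPKM values for 24107 genes in 12 libraries. Per the submitters' processing notes, STAR 2.5.3a, DESeq2 1.18.1 and mm10 were used. Which counter and annotation were used, the read length and the treatment of multiply matching reads: not given in the sources used here. The FPKM values of all 16728 genes above 0 came out as whole reads within 0.02 of a read, which gave the depths. FPKM totals differed between libraries, so the scaling can move members and all genes alike.

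Genes with at least 1 FPKM in at least 3 libraries (11462, all 84 members among them) were tested on log2(FPKM + 1) with limma 3.58.1 (trend) in R 4.3.3, in 1 fit of 4 groups with 8 residual degrees of freedom. Because 1 was added, fold changes of genes near or under 1 FPKM come out too small. P-values were adjusted by Benjamini-Hochberg over all tested genes and called below 0.05. The fit was tested on simulated counts with set changes. These held no shift between libraries tied to gene length, so that test does not cover such shifts. Motifs and 50-base words were counted with Python 3.11.15. Alternatives were another pseudocount, no filter, other scalings, voom on the recovered reads, the groups alone, a replicate block and each library left out, and, added after seeing the data, the adjustment for gene length and leaving out both shallow libraries.

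Members named in full were set by list (genes of disease, paralogs and the stalk), as the 4 largest rises and falls among those called in each comparison, and as the 3 highest and 3 lowest means, with the 2 called genes of smallest p in each other list. Rpl19 and Rpl7a in the MEP comparison, Rpl32, Rpl37 and Rpl37rt were chosen after their values were seen. The members and all lists were chosen with earlier results of these data known. Some results are not reported here.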

Additional observations from a re-analysis of the deposited data

Results flagged for a closer look

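Rpl4 and Rplp0 were flagged because their libraries were ordered in opposite ways in MEP and marrow, although none of the changes passed the test. Each leukemic MEP library was below each control MEP library, and each GFP+ marrow library was above each control marrow library. Of all tested genes 19.7% were lower without overlap in MEP and 17.6% higher without overlap in marrow. The share of all genes with both was not counted, so the pattern is not shown to be unusual. The change of Rpl4 was -0.45 in MEP and 0.24 in marrow, with adjusted p-values of 0.155 and 0.544, and the difference between these changes was -0.69 ± 0.31 (log2 ± SE, limma adjusted p = 0.272). For Rplp0 the values were -0.47 (adjusted p = 0.161) and 0.27 (adjusted p = 0.524, and -0.056 with quantile normalization, where the sign turned), and the difference was -0.74 ± 0.33 (adjusted p = 0.270). Neither difference passed the test.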

How the results depend on the processing

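The edgeR test was not run because the deposited unit is FPKM. In brackets after each count is the share of all tested genes called in either direction. Against 7 members called between leukemic and control MEP (26.0%), 16 were called with the adjustment for gene length (29.2%) and 1 with the family median set equal (17.3%). The count was 0 with the MEP groups alone (14.8%) and 0 to 16 with 1 library left out (16.9 to 29.5%). Against 2 in marrow (9.05%), 4 were called with the adjustment for length (10.3%) and 0 to 3 with 1 library left out (4.22 to 18.6%). Only 1 was called without both shallow libraries (16.4%), with the family median equal (4.55%) and with the groups alone (15.4%). The count was also 1 without the filter (6.86%), with a pseudocount of 0.1 (7.11%) and with quantile normalization (9.24%). Against 3 between the control groups (15.0%), 11 were called with the adjustment for length (17.6%) and without both shallow libraries (25.2%). The count was 0 with the family median equal (18.6%), 7 with the groups alone (31.8%), 18 with equal totals (16.7%) and 12 with voom (23.9%). Without the filter (10.8%) and with the pseudocount of 0.1 (15.9%) it was 5, and with quantile normalization (15.8%) it was 6. With 1 library left out it was 0 to 15 (9.24 to 24.4%). Against 1 between leukemic MEP and GFP+ marrow (3.05%), 4 were called with equal totals (5.53%) and 0 to 1 with 1 library left out (0.401 to 15.5%). The count was 0 with the family median equal (2.05%), no filter (1.23%) and quantile normalization (1.69%). It was also 0 with the groups alone, where 0% of all genes were called. The difference of changes had 0 in every setting (2.28 to 9.86%). Between the control groups the members' share called higher was above that of all genes in 15 of 22 alternatives. It was 21.4% against 5.16% with equal totals, 14.3% against 7.44% with voom and 13.1% against 5.19% with the adjustment for length. With the groups alone it was 8.33% against 10.9%, and with the replicate block 1.19% against 2.09%. The share called in either direction was above that of all genes in 2 of the 22. The cause of these shifts in the counts was not tested.

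With the replicate number as a block the counts were 7, 1, 1, 0 and 0 in the same order, and the 7 genes were the same. The numbers were not taken to pair the samples: the correlations of same-numbered deviations were -0.16, -0.05 and -0.15 between control and leukemic MEP and 0.02, -0.06 and 0.02 between the marrow groups. They were 0.50, 0.29 and 0.07 between control MEP and control marrow, and 0.09, 0.22 and 0.15 between leukemic MEP and GFP+ marrow, so in each of these 1 of the 3 pairs was not over 0.1. The members held 1.90, 1.63, 1.24 and 1.26% of recovered reads in control MEP, leukemic MEP, control marrow and GFP+ marrow, and without the 10 highest genes 2.95% and 3.02% of FPKM in the marrow groups. With 1 library left out the shares were 3.74 to 4.59%, 3.20 to 3.76%, 2.23 to 2.60% and 2.12 to 2.44%. The sign turned for Rplp0 in marrow with quantile normalization (-0.056, limma adjusted p = 0.882) and for Rps19 in MEP without control MEP 1 (-0.11, adjusted p = 0.849, in a range of -0.11 to 0.66 over the libraries left out). Setting the family median equal moved the median of all genes in MEP from 0.02 to 0.35. Because this setting takes out the members' own median, its counts of members cannot show a shift shared by the family. Depth limits the low members in leukemic MEP 3 and GFP+ marrow 2 most.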
